A study of Mus musculus with 2 samples.

Results

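The tissue described here is a small patch of injured mouse brain at 28 days after controlled cortical impact (CCI), marked by transcripts of Mmp3, Saa3 and Steap4. The section was read with Visium HD, which counts probe molecules, as unique molecular identifiers (UMIs), in square bins of 16 µm, so that a bin can hold parts of several cells. A bin was a member when it held at least 100 UMIs, lay at an array column under 240, which is the injured side, and when the block of 5 by 5 bins around it held at least 3 UMIs of the 3 genes together. The rule picked 890 bins, an area of 0.228 mm2, of the 49478 bins that passed on the injured side and of 227556 in both sections of the series. Members were thus chosen on measured values, and the levels of the 3 genes in them are a description. The series held 1 section of 1 male C57Bl6 mouse, 3 months of age, at each of 2 times after CCI, 3 days and 28 days. The mice had craniotomy under anesthesia and analgesia for the impact and are labelled as untreated, and no sham section was used here. Brains were perfused with paraformaldehyde and embedded in paraffin, and a coronal section of each was hybridised to a mouse probe set. With 1 section a group there is no test, so all intervals are exact 95% intervals for counting error alone and do not cover the spread between mice.

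Mmp3 encodes stromelysin, a matrix metalloproteinase that cleaves proteoglycans, laminin and fibronectin and activates other metalloproteinases. Saa3 encodes an acute-phase serum amyloid A protein made outside the liver during inflammation. Steap4 encodes a metalloreductase of cell membranes that reduces iron and copper and responds to inflammatory cytokines. Injured brain forms a border of reactive astrocytes, fibroblasts and phagocytes around lost tissue, and interleukin 1, tumor necrosis factor and interleukin 6 are known inducers of acute-phase genes in such cells through the factors NF-kappaB, C/EBP and STAT3.

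Upstream sequences are given for the 3 defining genes and for Lcn2 and C3. Lcn2 and C3 were the most abundant acute-phase transcripts with a high ratio in the patch. The choice rests on the patch as a whole and not on shared bins. Of the 890 members, 126 held UMIs of at least 2 of the 3 defining genes and 22 held all 3. Lcn2 was seen in 321 of the 394 members with a defining UMI of their own. Each sequence is the 250 bases before the RefSeq start in GRCm38.p6, written 5′ to 3′ on the gene's strand. The windows are chr9:7445572-7445821 (plus strand) for Mmp3, chr7:46715677-46715926 (minus) for Saa3, chr5:7960222-7960471 (plus) for Steap4, chr2:32387740-32387989 (minus) for Lcn2 and chr17:57228137-57228386 (minus) for C3. Capitals mark matches, on either strand, to AP-1 (TGANTCA), C/EBP (TTGCNNAA), STAT (TTCNNNGAA) and the NF-kappaB consensus.
Mmp3: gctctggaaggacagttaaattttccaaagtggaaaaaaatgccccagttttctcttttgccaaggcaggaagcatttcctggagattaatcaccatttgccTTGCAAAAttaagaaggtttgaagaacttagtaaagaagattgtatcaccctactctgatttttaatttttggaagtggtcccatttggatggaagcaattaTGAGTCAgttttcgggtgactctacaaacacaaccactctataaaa
Saa3: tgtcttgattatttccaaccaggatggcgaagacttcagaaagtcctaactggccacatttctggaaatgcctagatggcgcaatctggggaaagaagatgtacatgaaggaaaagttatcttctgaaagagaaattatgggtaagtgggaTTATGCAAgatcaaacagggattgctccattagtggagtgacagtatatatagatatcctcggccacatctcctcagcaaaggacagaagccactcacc
Steap4: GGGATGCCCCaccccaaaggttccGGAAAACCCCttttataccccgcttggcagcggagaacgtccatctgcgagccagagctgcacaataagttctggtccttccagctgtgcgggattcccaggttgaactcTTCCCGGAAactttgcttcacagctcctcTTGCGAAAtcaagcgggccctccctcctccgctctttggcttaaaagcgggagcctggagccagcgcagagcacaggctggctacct
Lcn2: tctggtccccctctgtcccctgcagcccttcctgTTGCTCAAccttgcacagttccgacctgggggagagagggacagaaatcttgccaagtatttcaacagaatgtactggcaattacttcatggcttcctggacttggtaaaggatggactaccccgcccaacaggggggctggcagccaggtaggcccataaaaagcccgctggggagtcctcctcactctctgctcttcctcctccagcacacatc
C3: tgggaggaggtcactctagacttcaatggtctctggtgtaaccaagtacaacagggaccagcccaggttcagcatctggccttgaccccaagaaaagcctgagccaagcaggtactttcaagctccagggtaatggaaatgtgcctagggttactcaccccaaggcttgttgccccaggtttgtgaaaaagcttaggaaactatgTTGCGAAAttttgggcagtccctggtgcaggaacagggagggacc
Of 32851 such windows, 6.75% held a match to AP-1, 9.56% to C/EBP, 7.02% to STAT and 7.25% to NF-kappaB. Mmp3 held AP-1 and C/EBP matches, Steap4 held a C/EBP match, a STAT match and 2 NF-kappaB matches, and Saa3, Lcn2 and C3 each held a C/EBP match alone. The C/EBP count depended on the spelling: with the acute-phase genes Ptx3 and Cp included, TTGCNNAA matched 7 of 7 genes, TTGCGNAA matched 2 (Steap4 and C3, 0.670% of windows), and the spelling searched first, TTNCNNAA with a purine, a purine and a pyrimidine at its N positions in that order, matched 2 (Saa3 and Ptx3, 3.39% of windows). The spellings were changed with the sequences in view, so nothing is read from the 7 of 7.

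The members were not one continuous area. They fell into 12 connected groups, of which the largest held 587 bins (66.0%) and the next 132 bins (14.8%), and they spanned 2496 by 3200 µm of the section. The patch, meaning all members together, held 1439682 UMIs, with a median of 1572 UMIs and 1115 genes a bin. The defining transcripts were almost confined to it: 411 of the section's 424 Mmp3 UMIs, 267 of 294 Saa3 UMIs and 451 of 547 Steap4 UMIs lay in members, which the rule itself fixes in large part. They were also unevenly spread. The 10 richest bins held 50% of the Saa3 UMIs, with up to 27 in 1 bin, against 38 bins for Mmp3 and 85 for Steap4. Of the members, 394 (44.3%) held a defining UMI themselves and 496 were members through their neighbours alone, while 126 held UMIs of at least 2 of the genes and 22 held all 3. On the opposite side 1 of 53838 bins met the rule. Just inside the threshold, 136 bins with a block of 3 UMIs had 242 Lcn2 UMIs per 1000000 UMIs of their own (CPM) and 958 CPM of C3, and just outside it 376 bins with a block of 2 had 77.1 and 519 CPM.

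The main reference was the field of phagocytes on the injured side, taken as the 4983 bins outside the patch whose block of 3 by 3 bins held at least 5 UMIs of Cst7 and Gpnmb, genes of lipid-laden microglia and macrophages. Most of that field lay away from the patch, at a median of 448 µm from bare slide against 80 µm for members, and 692 of its bins (13.9%) were within 10 bins (160 µm) of a member; these are called the nearby field. All 3250 non-members within 10 bins formed a ring as a local reference, nearby field included. The patch and the field differed in more than their markers. Members had a median of 1572 UMIs a bin against 436 in the field, 699.5 in the nearby field and 684.5 in the ring, and 60.2% of members lay within 5 bins (80 µm) of bare slide against 7.37% of field bins. Of the members, 749 (84.2%) met the field rule as well, which counts UMIs whatever the depth. The 890 members held 6032 UMIs of Gpnmb but only 253 of Cst7, against 3968 and 2549 in the field. Levels are therefore given as CPM of each area's own UMIs, and the part of depth and of position in a ratio was not tested beyond the values given beside it. In summed bins, fewer cells of a type and less RNA per cell cannot be told apart.

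**Figure D1:**
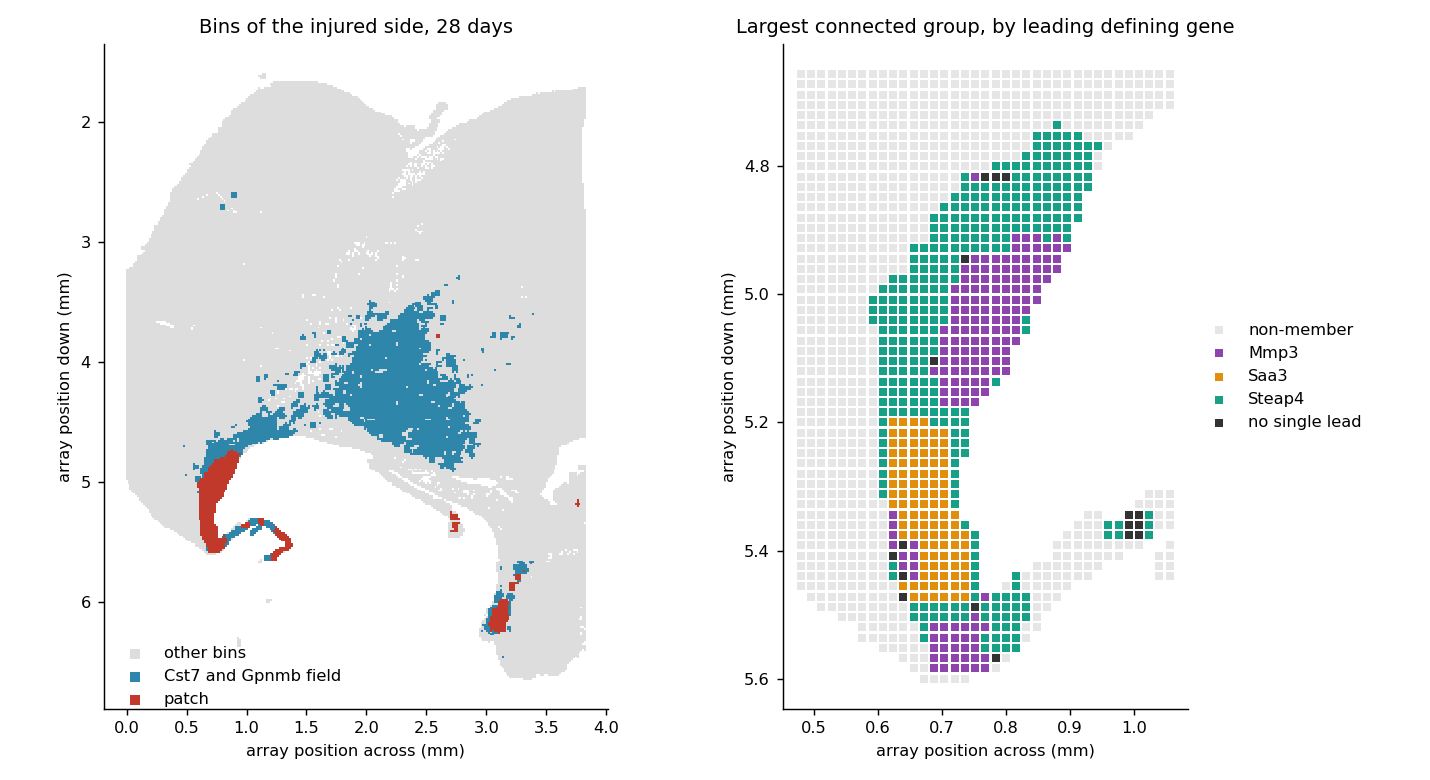
Map of the 28-day section in millimetres across and down the array. On the left, each point is a bin of the injured side, with the 890 members in red, the 4983 bins of the Cst7 and Gpnmb field in blue and other bins in grey; 536 of the members (60.2%) lie within 5 bins of bare slide, against 367 (7.37%) of the field bins. On the right, the largest connected group of 587 members is coloured by the defining gene with the most UMIs in each bin's block, and the Mmp3 and Saa3 parts form separate stretches inside a wider Steap4 area.

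Several acute-phase genes were higher in the patch than in every reference. Of 10405 genes with at least 50 UMIs over patch and field, 494 (4.75%) were at least 2-fold higher in the patch and 433 (4.16%) at least 2-fold lower, with a median log2 ratio of -0.02. A gene that reached this minimum only through a high level in the patch had to be higher. Counts and medians of gene lists are therefore given over genes that would reach 50 UMIs at the level of the reference, and the others are given by their values alone. Some list medians keep all genes with at least 50 UMIs over both areas. Unless stated, these are medians for bins with at least 1000 UMIs, for the largest connected group and for the alternatives at the end. Against the field these were 10097 genes, of which 325 (3.22%) were higher and 433 (4.29%) lower. This limit acts on 1 side only. A gene that passed through a high level in the reference alone had to be lower and was kept, so higher and lower counts are not compared. Of 6 such acute-phase genes 5 were at least 2-fold higher and none lower, with a median of 2.53, and Ptx3 and Hp reached the minimum only through the patch. Lcn2, a lipocalin that binds bacterial siderophores, stood at 1943 CPM in the patch, 123 CPM in the field, 175 in the nearby field, 49.1 in the ring and 0.598 on the opposite side. That was 15.8-fold above the field (log2 ratio 3.98, interval 3.81 to 4.16). C3, the central complement protein, stood at 2701 CPM in the patch, 419 in the field, 804 in the nearby field and 245 in the ring (2.69, interval 2.59 to 2.79, against the field).

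Both transcripts were seen across much of the patch. Lcn2 was seen in 532 members (59.8%), in 321 of the 394 with a defining UMI of their own and in 211 of the 496 others, against 260 field bins (5.22%) at the lower depth there. The patch held 86.3% of the section's 3241 Lcn2 UMIs and 67.7% of its 5747 C3 UMIs. Ptx3, a pentraxin that marks debris and pathogens, had 111 CPM in the patch and 7.65 in the field (3.83, interval 3.17 to 4.63). Cp, ceruloplasmin, a copper-bound ferroxidase, had 274 and 36.7 CPM (2.89). Haptoglobin, Hp, which binds free hemoglobin, had 50 UMIs in the patch and 7 in the field (3.54, interval 2.47 to 5.01). Lbp, which binds bacterial lipopolysaccharide, had a ratio of 2.37 and the complement inhibitor Serping1 one of 1.46. Serpina3n, a protease inhibitor of reactive astrocytes, was the exception at 1901 CPM in the patch against 2642 in the field (-0.47), although its ring level was 576 CPM.

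For these 7 genes above the field, the nearby field gave smaller ratios, in the same direction for all but Serping1, whose interval included 0. Of 8287 genes measured against it, 142 (1.71%) were at least 2-fold higher in the patch and 109 (1.32%) lower, with a median of -0.04. Over the 7760 genes that would reach the minimum at its level, 51 (0.657%) were higher and 109 (1.4%) lower, under the same limit on 1 side. Of 7 such acute-phase genes 4 were higher and none lower, with a median of 1.62, and Lcn2 (3.46), Ptx3 (1.93), C3 (1.75) and Cp (1.62) were the 4. Hp, on 50 and 5 UMIs, had a ratio of 1.85. Lbp (0.47) was less than 2-fold higher, and Serping1 (0.17, interval -0.15 to 0.51) was within counting error of equal. Serpina3n changed direction, with 1435 CPM in the nearby field and a ratio of 0.41 (interval 0.29 to 0.52). Against the ring, where 717 (6.68%) of 10737 genes were at least 2-fold higher and 1073 (9.99%) lower with a median of -0.09, the same limit left 10466 genes, with 552 (5.27%) higher and 1073 (10.3%) lower. Of 6 acute-phase genes among them 5 were higher, with a median of 2.14.

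**Figure D2:**
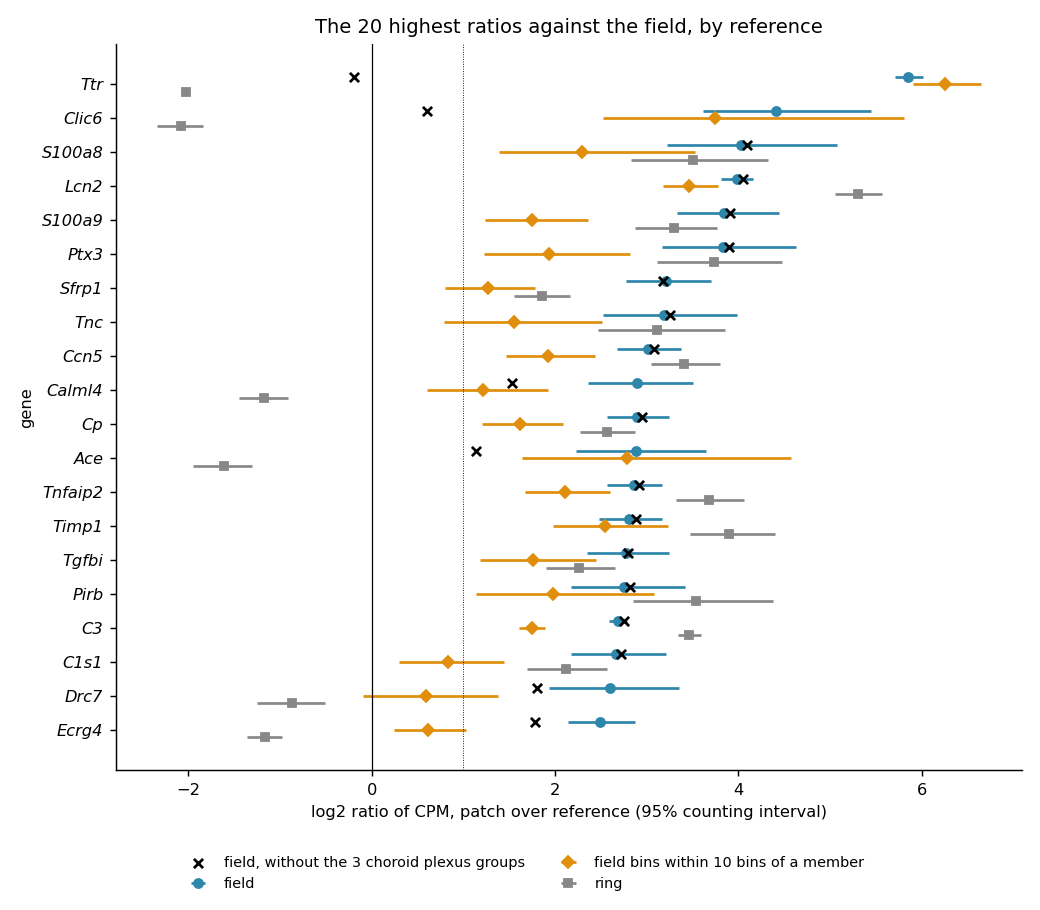
Log2 ratios of CPM in the patch over each reference for the 20 genes with the highest ratio against the field, with 95% counting intervals; circles give the field, diamonds the nearby field, squares the ring, and crosses the field with the 3 choroid plexus groups left out of the patch. Lcn2 stays above 3 against all references, while Ttr and Clic6 fall to -0.19 and 0.60 without the choroid plexus groups and are below the ring. A gene could enter the 20 through a high level in the patch alone.

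Genes outside the defining genes were ranked when they held at least 100 UMIs over the patch and the field. The highest ratios belonged to Ttr (5.85) and Clic6 (4.40), genes of choroid plexus. A gene could enter this ranking through the patch alone and then had to be higher. Of the 20 highest, Clic6, S100a8, S100a9, Ptx3, Sfrp1, Tnc, Calml4, Ace, Tgfbi, Pirb, C1s1 and Drc7 would miss that minimum at the field's level. They had 12 to 55 UMIs in the field. Of those in the gene lists, Clic6, S100a8, Ptx3 and Tnc also missed the lower minimum used for counts. Timp1, the inhibitor of metalloproteinases that also binds stromelysin, had 253 CPM in the patch, 35.9 in the field, 42.5 in the nearby field and 16.7 in the ring (2.81 against the field, interval 2.48 to 3.17). Ccn5, a matricellular growth regulator, had 278, 34.2, 72.6 and 26.1 CPM in the same order (3.01). Tnfaip2, a gene induced by tumor necrosis factor, had 340, 46.7, 77.9 and 26.4 CPM (2.86). All 3 were also above the nearby field, with log2 ratios of 2.54, 1.92 and 2.11. Tnc, tenascin C, a glycoprotein of healing matrix, had 108 UMIs in the patch and 20 in the field (3.19, and 1.55 against the nearby field). Sfrp1, a secreted antagonist of Wnt ligands, had ratios of 3.21 and 1.27, Tgfbi, a matrix protein induced by TGF-beta, 2.78 and 1.76, and Pirb, an inhibitory receptor of myeloid cells, 2.76 and 1.98.

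S100a8 and S100a9, the calprotectin subunits abundant in neutrophils and inflammatory monocytes, had 82.0 and 188 CPM in the patch, 4.83 and 12.9 in the field, 15.9 and 54.9 in the nearby field and 7.07 and 19.0 in the ring. The ratios against the field were 4.03 (interval 3.23 to 5.08) and 3.84 (3.33 to 4.44). S100a8, on 12 UMIs in the field, reached the minimum only through the patch. Genes that define neutrophils were too sparse to say whether they followed: the patch held 1 UMI of Ly6g, 4 of Retnlg and 10 of Cxcr2, against 0, 1 and 6 in the field, and no UMI of Ngp, Camp or Ltf, a count of 0 that allows up to 2.08 CPM. S100a9 was seen in 120 members, and 26 bins held 50% of its 270 UMIs. In the monocyte-derived macrophage list 3 of 3 genes counted were at least 2-fold higher than in the field, with a median of 1.89, and 1 of 2 than in the nearby field, with a median of 1.13. Lyz2, lysozyme, led by level at 3380 CPM in the patch, 788 in the field, 1286 in the nearby field and 337 in the ring (2.10). The scavenger receptor Msr1 (1.89) and Ms4a7, a membrane protein of macrophages (1.26, and 0.86 against the nearby field), were the others. The chemokine receptor Ccr2 (2.83, on 47 and 11 UMIs) was not counted, since it reached the minimum only through the patch. Acp5, the tartrate-resistant phosphatase of osteoclasts and some macrophages, had 59 UMIs against 12 (3.04), and likewise passed only through the patch.

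Phagocyte genes in general were not above the field, which was itself chosen on 2 phagocyte genes, so this follows in part from the reference. With at least 1000 UMIs a bin the median of their list against the field was 0.19. Of 15 genes of the phagocyte list 1 was at least 2-fold higher and 2 lower, with a median of -0.43, while 13 were higher than in the ring, with a median of 1.25. Apoe, the main lipid carrier, was the most abundant at 64593 CPM in the patch and 58439 in the field (0.14). Lgals3, galectin 3, was the gene that was higher (756 against 328 CPM, 1.20), but stood at 547 CPM in the nearby field (0.46), against which none of the 15 was at least 2-fold higher. Spp1, osteopontin, was lower (1282 against 3705 CPM, -1.53), but stood at 1169 CPM in the nearby field, a ratio of 0.13. Itgax, the integrin CD11c, was lower against both (-1.57 and -0.99). Homeostatic microglia genes had a median of -0.62, with 1 of 9 at least 2-fold lower (Gpr34, -1.29), and against the nearby field 3 of 8 were lower, with a median of -0.52. With at least 1000 UMIs a bin their median against the field was -0.11. Tmem119, which the paper uses as a marker of these cells, was the only one of the 9 above the field (0.59, and 0.69 against the nearby field). Against the ring 1 of 9 was higher, Tmem119 (1.11), and none lower, with a median of 0.44. T cell, B cell and border macrophage lists had no gene with enough UMIs for a ratio against the field.

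Il1b, encoding interleukin 1 beta, had 40 UMIs in the patch, 9 in the field and 11 in the ring (2.88 against the field, interval 1.87 to 4.17). These UMIs were 1 short of the minimum for a ratio to count. Of the 14 genes of the interleukin 1 and NF-kappaB list that reached it, 4 were at least 2-fold higher than in the field and none lower, with a median of 0.69. They were the receptor Il1r1 (1.01), the NF-kappaB inhibitor Nfkbia (1.17), its relative Nfkbiz (1.23) and the adhesion molecule Icam1 (1.26). Against the ring, 11 of 12 were higher, with a median of 1.37, and against the nearby field none of 11 reached 2-fold, with a median of 0.59. In the chemokine list 4 of 11 were higher than in the field and 3 lower. The interferon-induced Cxcl10 (2.10), the neutrophil attractant Cxcl5 (112 against 31.8 CPM, 1.81), the stromal Cxcl12 (1.20) and Ccl5 (1.01) were the 4. The monocyte attractant Ccl2 had 55 UMIs against 16 (2.54) and passed through the patch. Ccl3 (-1.50), Ccl4 (-1.38) and Ccl9 (-1.13), made largely by microglia and macrophages, were the 3. Against the nearby field 1 of 5 was higher, Cxcl5 (1.56), and none lower, with Cxcl12 at 0.08 and Ccl3 at -0.99, while Ccl2 (2.27, on 4 UMIs there) and Cxcl10 (1.73, on 12) were not counted. Of the interleukin 6 family list, the oncostatin M receptor Osmr (1.01) was at least 2-fold higher, the leukemia inhibitory factor receptor Lifr (-1.10) lower, and the median over 5 was 0.11. Neither reached 2-fold against the nearby field (0.33 and -0.42).

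Of 11 complement genes counted, 3 were at least 2-fold higher than in the field and none lower, with a median of 0.21. The protease C1s1 (106 against 16.5 CPM, 2.66) was higher along with C3 and Serping1, and C1ra, which passed through the patch, had a ratio of 2.28, whereas the recognition subunits C1qa (-0.72) and C1qb (-0.36), products of microglia, were lower, and C4b was near the field (0.07). Against the nearby field C1ra had a ratio of 1.36 and C1s1 one of 0.84, the counting intervals of C1qa (-0.03) and C1qb (0.01) included 0, and C4b was at -0.40 (interval -0.51 to -0.30).

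Fibroblast, matrix and ependymal genes depended on the reference. Against the whole field, 6 of 8 fibroblast genes, 10 of 16 matrix protein genes and 5 of 6 ependymal genes were at least 2-fold higher and none lower, with medians of 1.34, 1.16 and 1.41. For the largest connected group alone, over all genes with at least 50 UMIs, the medians were 0.66, 1.10 and 1.37. Against the nearby field the counts were 0 of 10, 1 of 14 and 0 of 6, and the medians were -0.59, 0.01 and -0.30. Col1a1, the main fibrillar collagen, had 235 CPM in the patch, 92.3 in the field and 386 in the nearby field. The small proteoglycan Dcn had 334, 123 and 492 CPM, and the growth factor Igf2 had 461, 216 and 808. Foxj1, the transcription factor of motile cilia, had 235, 99.1 and 230 CPM. The nearby field was thus above the patch in the first 3 of these genes and within counting error of it in Foxj1 (log2 ratio 0.02, interval -0.27 to 0.33). Thrombospondin 1, Thbs1, had 56.3, 15.3 and 17.7 CPM, on 10 UMIs in the nearby field.

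A similar split was seen in bins of higher depth. How near these field bins lay to the patch was not examined, so depth and position cannot be told apart. Areas were limited to bins with at least 1000 UMIs, which left 684 members and 263 field bins. Over all genes with at least 50 UMIs in both areas, the medians against the field were -0.97 for fibroblast, -0.07 for matrix protein and -0.58 for ependymal genes. Lcn2 had a ratio of 3.62, C3 one of 1.70, S100a9 one of 1.44 and Lyz2 one of 1.31.

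**Figure D3:**
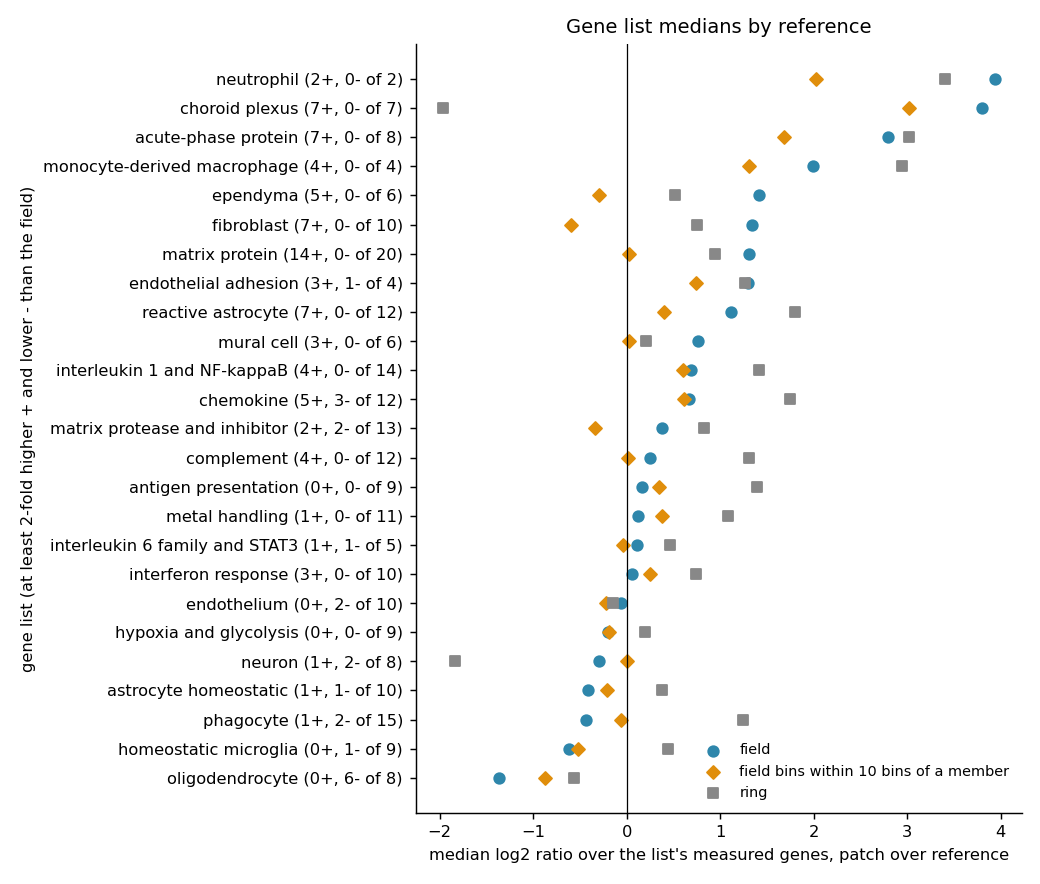
Median log2 ratio of each gene list, patch over field (circles), over the nearby field (diamonds) and over the ring (squares); all genes with at least 50 UMIs are plotted and counted, those that passed only through the patch included, and the axis labels give how many were at least 2-fold higher (+) and lower (-) than the field. The fibroblast, matrix and ependymal medians move from above 1 to near or below 0 against the nearby field.

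Glial and neuronal genes were mixed or lower. Of 12 reactive astrocyte genes 7 were at least 2-fold higher than in the field, with a median of 1.12, and 3 of 10 than in the nearby field, with a median of 0.40. The intermediate filament Vim (5194 against 2220 CPM, 1.23) and the hyaluronan receptor Cd44 (1.31) were among them, and the other 5 were Lcn2, Cp, Timp1, Osmr and Cxcl10, which stand in other lists as well. Vim (0.40), Cd44 (0.73) and Osmr (0.33) were under 2-fold against the nearby field, and the 3 that were higher were Lcn2, Timp1 and Cp. By contrast, Gfap, the classical astrocyte filament, was near the field (5509 against 6351 CPM, -0.21). The adhesion molecule Vcam1 (208 against 60.4 CPM, 1.78) was higher than in the field and Cd34, a sialomucin of endothelium, was lower (58.3 against 210 CPM, -1.84), with ratios against the nearby field of 0.98 and -1.13. Oligodendrocyte genes were lower in 6 of 8, with a median of -1.37, Mbp at 1229 against 3825 CPM (-1.64) and Mobp at -1.94. Against the nearby field 3 of 8 were lower, with a median of -0.88, and with at least 1000 UMIs a bin the median against the field was -0.63. Neuronal genes were lower than in the ring in 9 of 9, with a median of -1.84. Against the field 2 of 8 were lower and 1 higher, Nrgn, the postsynaptic neurogranin (270 against 51.2 CPM, 2.40), with Snap25, a synaptic vesicle fusion protein, at -0.93 and Gad1, the GABA-synthesizing enzyme, at -2.17. Against the nearby field none of 6 neuronal genes reached 2-fold in either direction, with Nrgn at 0.92 and Snap25 at -0.03.

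The 15 lowest ratios included neuronal genes and immune receptors. A gene could enter this ranking through the field alone and then had to be lower. Ecel1, an endopeptidase (1 UMI in the patch against 355 in the field), the transcription factor Shox2 (2 against 112), the glutamate transporter Slc17a6 (4 against 165), the neurofilament Nefh (7 against 227) and netrin G1, Ntng1 (6 against 135), are genes of neurons, present on the opposite side at 34.1, 60.8, 108, 140 and 85.7 CPM. Lag3, an inhibitory receptor that microglia also express, had 47.2 CPM in the patch, 368 in the field and 131 in the nearby field (-2.95). Pdcd1, the receptor PD-1, had 4 against 105 UMIs (-3.77) and the sialic acid receptor Siglecf 10 against 169 (-3.23). Against the ring the ratios were -0.52 for Lag3, -1.48 for Pdcd1 and -0.13 for Siglecf (interval -1.42 to 0.98), and all 3 were above the opposite side, by 2.97, 3.28 and 3.10. Agt, angiotensinogen, which astrocytes express, had 11 against 154 UMIs (-2.96), and the others were Cabp7, Inpp5j, Rasd1, Scg2, Adarb1 and Rab37. All 15 were also lower than in the nearby field, from -3.67 for Ecel1 to -1.01 for Scg2.

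Against the field, no gene of the antigen presentation list (9 measured, median 0.17) or of the hypoxia and glycolysis list (9, median -0.20) reached 2-fold in either direction. Against the ring, 8 of 9 antigen presentation genes were higher, with a median of 1.39, and no hypoxia and glycolysis gene reached 2-fold (median 0.19). Of 11 metal handling genes 1 was higher than in the field, Cp, with a median of 0.12. The count was 2 of 10 against the nearby field (median 0.38) and 6 of 11 against the ring (1.08). The metallothioneins Mt1 and Mt2, which bind zinc and copper, had 6412 and 5262 CPM in the patch against 7848 and 3894 in the field. Of 10 interferon response genes 3 were higher, with a median of 0.05, Gbp2, a guanylate-binding protein (1.74), and Ifitm3, a restriction factor of viral entry (1.75), among them. The nearby field gave 1 of 7 higher, with Gbp2 at 1.26 and Ifitm3 at 0.82. Of 6 mural cell genes 3 were higher than in the field, Acta2 (1.56), Tagln (1.40) and Myh11 (1.24), all of smooth muscle, with a median of 0.76. The other 3 were under 2-fold, with Rgs5 at -0.95, Vtn at -0.33 and Pdgfrb at 0.29. None of 5 was at least 2-fold higher than in the nearby field and 1 was lower, with a median of -0.10. Of 10 endothelial genes 2 were lower than in the field, with a median of -0.06. In the list of proteases and their inhibitors, the plasminogen activator Plau (-1.12) and the aggrecanase Adamts4 (-1.18) were lower, in contrast to Timp1, with ratios of -0.64 and -0.67 against the nearby field.

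Part of the high ratios came from choroid plexus. In 3 of the small connected groups, 37 bins in all, choroid plexus genes made up over 5% of UMIs, a limit set after the levels were seen. They held 11968 of the patch's 12143 UMIs of Ttr, the thyroxine carrier of choroid plexus epithelium, and no UMI of Lcn2 or C3, a count of 0 that allows up to 46.1 CPM. Without them the log2 ratio against the field changed from 5.85 to -0.19 for Ttr, from 4.40 to 0.60 for the chloride channel gene Clic6 and from 2.89 to 1.14 for the angiotensin-converting enzyme gene Ace. The ratios of Calml4, Drc7 and Ecrg4 also moved, to 1.53, 1.81 and 1.79, and all 6 genes were lower in the patch than in the ring. For the other 14 of the 20 highest genes the ratio moved by less than 0.1.

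Levels dropped steeply at the edge of the patch. Lcn2 stood at 1943 CPM in members, 84.9 CPM at 1 to 5 bins from a member, 12.8 at 6 to 10, 12.3 at 11 to 20 and 20.9 at 21 to 40 bins. C3 went from 2701 to 409 and 77.3 CPM over the first of these bands, and Ccn5 from 278 to 41.3 and 10.5. The block of 5 by 5 bins around a bin reaches only part of the way across the first band. A part of this step still follows from how members were chosen. Gfap declined more gradually, from 5509 to 4367, 2270 and 1802 CPM at 11 to 20 bins. Col1a1 was almost level across the edge, at 235 CPM in members and 200 CPM at 1 to 5 bins. Lag3 had 47.2 CPM in members, 70.9 at 1 to 5 bins, 65.3 at 6 to 10, 70.9 at 11 to 20, 92.3 at 21 to 40, and 422 UMIs over the 28727 bins farther away, where it was lower than in members, so it had no single direction with distance.

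Members differed among themselves by group. The largest group held 587 bins over 864 by 368 µm on the edge of the bare area, the next 132 bins, and a thin strand that reached into the bare area 79 bins, with 9 small groups of 1 to 17 bins. C3 stood at 3042, 2405 and 2354 CPM across these 3. The range of Lcn2 was wider, at 2300 (interval 2210 to 2393), 1918 (1702 to 2155) and 556 CPM (409 to 739). The strand was rich in fibroblast genes, with 1893 CPM of Col1a1, 2414 of Dcn and 3526 of Igf2, against 119, 195 and 47.7 CPM in the largest group. The group of 132 bins had no Col1a1 UMI, which allows up to 20.3 CPM. Lyz2 had 3870, 1358 and 5348 CPM, and Gfap 5490, 9606 and 2047 CPM. S100a9 belonged to the largest group, at 250 CPM (221 to 282), against 20.3 CPM on 3 UMIs in the group of 132 bins and no UMI in the strand, which allows up to 35.5 CPM.

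**Figure D4:**
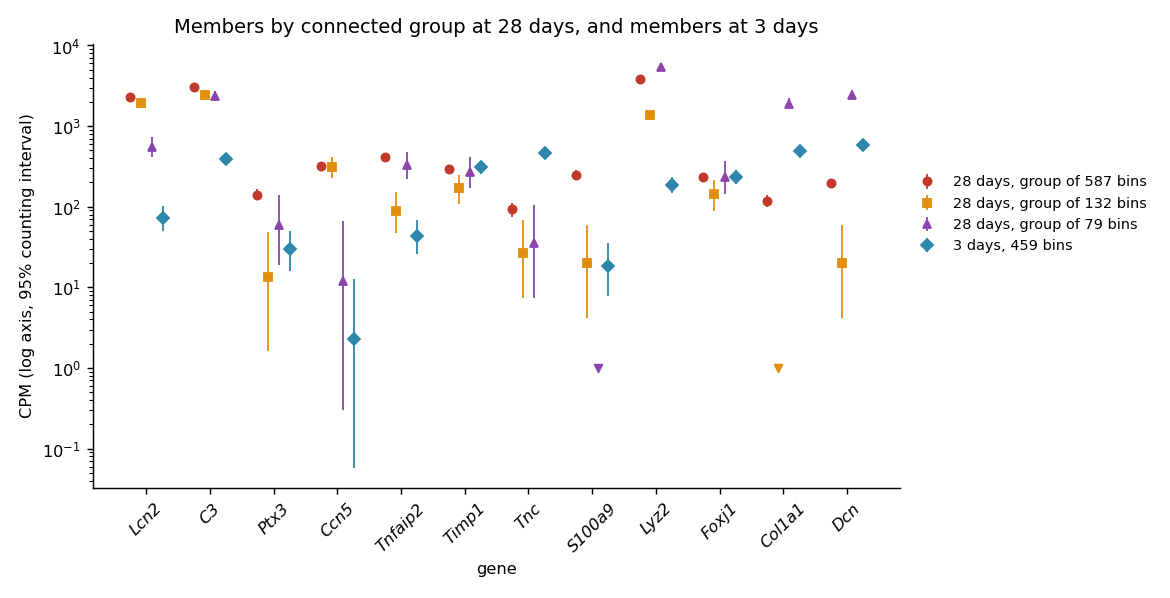
CPM of 12 genes, on a log axis with 95% counting intervals, in the 3 largest connected groups at 28 days and in the members of the 3-day section; a triangle pointing down at 1 marks a gene without a UMI there. C3 has a narrower range than Lcn2 over the 3 groups, Col1a1 and Dcn are highest in the group of 79 bins, and Lcn2 and Ccn5 are lowest at 3 days.

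The 3 defining genes led in different places. By the gene with the most UMIs in a bin's block, 171 members were led by Mmp3, 150 by Saa3 and 540 by Steap4, and 29 had no single lead. Within the largest group the numbers were 164, 104 and 308. In that group Lcn2 stood at 2744, 1740 and 2265 CPM in the parts led by Mmp3, Saa3 and Steap4, and C3 at 3468, 2780 and 2904 CPM, so both were high in all. Other genes followed 1 part. Ccn5 (472, 128 and 310 CPM), Timp1 (463, 173 and 237 CPM) and Tnc (161, 59.2 and 65.5 CPM) were highest beside Mmp3. Col3a1, a fibrillar collagen (133, 587 and 48.1 CPM), and Foxj1 (154, 424 and 210 CPM) were highest beside Saa3. Lyz2 was high beside both (6502 and 4397 CPM) and lower beside Steap4 (2092 CPM), as was Acp5 (78.7, 73.9 and 13.5 CPM).

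The largest group was also layered from its free edge inward, in bands of 1 to 2, 3 to 5 and 6 to 10 bins from bare slide that held 133, 224 and 224 bins. The 6 bins farther in are left out of the comparison for their few UMIs. At the edge, Foxj1 stood at 679, 242 and 55.1 CPM over the bands, the smooth muscle actin Acta2 at 254, 50.4 and 22.6 CPM, Ptx3 at 261, 155 and 82.7 CPM and Lbp at 350, 163 and 32.6 CPM. Their intervals for the first and the last band did not overlap. Lyz2 peaked in the middle band, at 1688, 6180 and 1749 CPM, as did Lgals3, at 700, 1236 and 348 CPM. Lcn2 was nearly flat at 2340, 2603 and 1940 CPM. S100a9 was highest in the last of the 3 bands, at 48.0, 145 and 459 CPM (interval 395 to 530 in the last band), beside Il1b, with no UMI at the edge, which allows up to 20.6 CPM, and 29.1 and 60.1 CPM inward. Snap25 stood at 68.6, 244 and 1331 CPM, and at 2583 CPM on 20 UMIs in the 6 bins farther in, where S100a9 had 2 UMIs and Il1b none. The bands beyond a single split at 5 bins were drawn after the levels were seen, and median UMIs a bin were 1005, 2294 and 1720 in them.

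**Figure D5:**
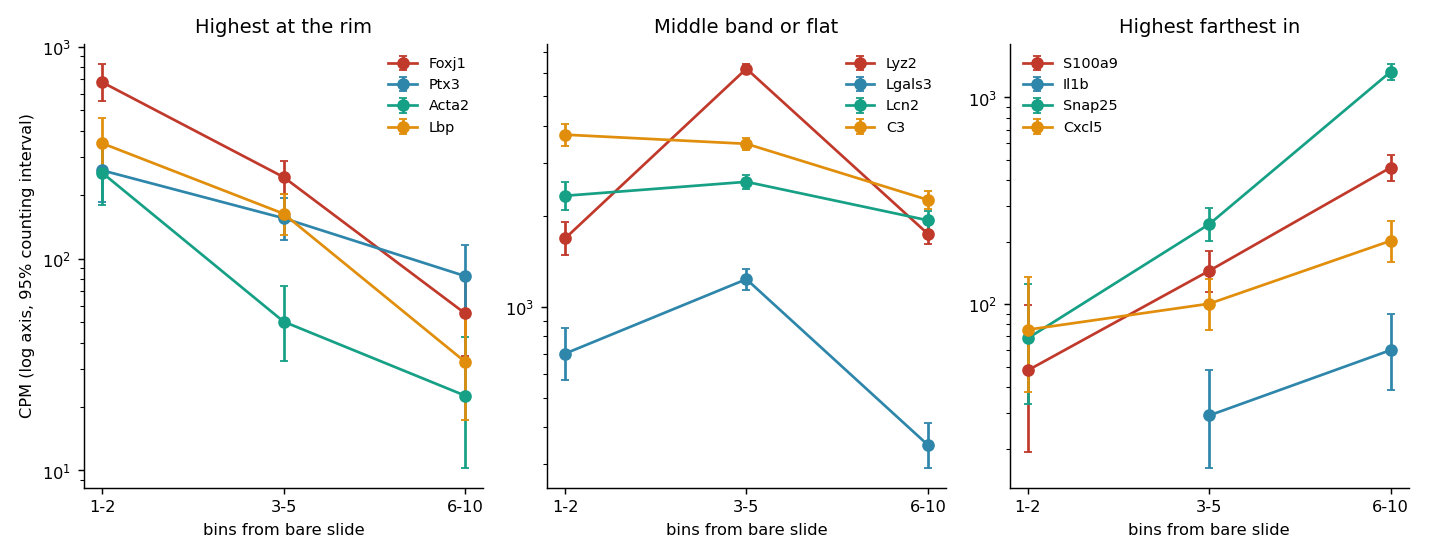
CPM of 12 genes in the largest connected group by distance from bare slide (1 to 2, 3 to 5 and 6 to 10 bins of 16 µm), on log axes that differ between panels, with 95% counting intervals; Il1b had no UMI in the first band. Foxj1, Ptx3, Acta2 and Lbp are highest at the edge, Lyz2 and Lgals3 in the middle band, and S100a9, Il1b, Snap25 and Cxcl5 in the last of the bands shown.

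At 3 days the same 3-gene rule, applied over all columns, found 459 members of 119617 bins, scattered over 22 connected groups of which the largest had 53 bins. These members held 70 UMIs of Saa3, 27 of Steap4 and 18 of Mmp3, against 267, 451 and 411 in the 28-day patch. Median depth was 754 UMIs a bin in the 3-day members and 1572 in the patch. Of the 3-day members 10 (2.18%) met the field rule, against 84.2% of members at 28 days. Over the 119617 bins at 3 days, 806 outside the members met it. At 28 days 5732 of 49478 bins of the injured side met it (11.6%), members included, and 0 of 53838 on the opposite side. Lcn2 stood at 72.9 CPM (interval 49.9 to 103) in the 3-day members and 1943 CPM (1872 to 2016) in the 28-day patch, C3 at 387 and 2701, Lyz2 at 187 and 3380, and S100a9 at 18.2 and 188. Ccn5 had 1 UMI at 3 days. Timp1 (308 and 253 CPM) was nearer in level, and Tnc (458 and 75.0 CPM), Ccl2 (59.2 and 38.2 CPM), Thbs1 (253 and 56.3 CPM) and Col1a1 (488 and 235 CPM) were higher in the 3-day members. Ccl2 at 3 days rested on 26 UMIs (interval 38.7 to 86.8 CPM). Log2 ratios of members over the other bins of their own section were lower at 3 days for Ccl2 (3.77 and 5.92) and Timp1 (4.15 and 6.41). They were higher at 3 days for Tnc (4.34 and 3.11), Thbs1 (3.91 and 2.83) and Col1a1 (3.96 and 3.63). Choroid plexus groups made up 47 of the 3-day members. Without such groups at either time, Timp1 stood at 404 CPM at 3 days and 265 at 28 days, C3 at 505 and 2828, and Lyz2 at 239 and 3539. With 1 mouse at each time, time, mouse and section cannot be told apart.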

How the data were processed

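Gene expression was measured on formalin-fixed, paraffin-embedded coronal brain sections with Visium HD (mouse probe set). The deposited values were raw UMI counts per gene and 16 µm bin, made by the authors with Space Ranger 4.0.1 (version per the file headers; build mm10 in the submitters' processing notes), with no normalization. The tables held 19070 genes. The 28-day section held 105589 bins and 82422389 UMIs, of which bins with at least 100 UMIs were used.

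Counts were summed over each area and scaled to CPM. Log2 ratios used a pseudocount of 0.5 UMI and genes with at least 50 UMIs over both areas, and "higher" or "lower" in a count meant at least 2-fold. The 5 defining genes of patch and field were left out. Intervals were exact 95% conditional binomial (ratios) and exact Poisson (CPM). A count of 0 was given the limit of 3 counts over the area's total. Connected groups joined bins with 8 neighbours. The computation was tested on simulated data. The genes named were the 20 highest and 15 lowest ratios with at least 100 UMIs, and members of 30 gene lists; within the lists, those named were picked with their values in view, and 1 item of the lists is not reported here. Members and lists were chosen with earlier results of these data known. Alternatives were other marker thresholds, blocks, UMI and gene minimums, defining genes, field thresholds, pseudocounts and scalings (TMM in edgeR 4.0.16, R 4.3.3). Leaving out choroid plexus groups, the nearby field, the gene minimum on the reference level (reference UMIs scaled to both areas' totals), the 1000-UMI limit, and the thresholds for the distance and 3-day results were added after seeing the data. Tables and sums were handled with pandas 2.3.3 and numpy 2.4.6, intervals with scipy 1.17.1 and plots with matplotlib 3.10.9, all under Python 3.11.15.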

Additional observations from a re-analysis of the deposited data

How the results depend on the processing

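No paired analysis was possible because each group had 1 section. The extent of the patch was 543 bins with a 3 by 3 block, 539 without Steap4 and 587 for the largest group alone. Connected groups numbered 5 at 5 or more UMIs a block and 20 at 2 or more, 3-day members 158 and 1055, and Lcn2 at 1 to 5 bins 207 and 51.4 CPM. Genes lower than the field numbered 268 with a field of at least 10 UMIs. Without a gene minimum 2267 were higher and 1544 lower than the field, and 2366 and 2202 than the ring. With the nearby field alone the counts were 142 and 109, and with at least 1000 UMIs a bin 166 and 140. Over genes that would reach the minimum at the level of the reference, 325 were higher than the field and 51 than the nearby field, against which 109 were lower and 3 lists against 6 had medians of at least 1 for both references. Scaled as UMIs per bin, 9519 genes were higher and 29 lower than the field, 4381 and 144 than the ring, and 23 lists against 6 had medians of at least 1 for both references, since members held more UMIs.

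Among values at least 2-fold from equal, or list medians of at least 1, directions turned in these cases. The choroid plexus list against the ring became 0.32 at 5 or more UMIs a block, 0.53 without Steap4, 1.12 in the largest group and 0.51 without the choroid plexus groups, and Ttr -0.086 and -0.19 in the first and last of these. Igf2 was -2.16 in the largest group. Per bin, the oligodendrocyte list was 0.33, Ccl3 0.20, Ccl4 0.32, Ccl9 0.57, Lifr 0.60, Spp1 0.17, Itgax 0.13, Gjb6 0.63, Gpr34 0.41, Mbp 0.062, Plau 0.58 and Adamts4 0.52. Without a gene minimum, the bone, muscle and fat list was -0.80 against the field and -0.38 against the ring. Against the nearby field, the fibroblast list was -0.59, the ependymal list -0.30, Col1a1 -0.72, Col3a1 -0.088, Dcn -0.56, Igf2 -0.81, Bgn -0.37 and Spp1 0.13. With at least 1000 UMIs, the fibroblast list was -0.97, ependymal -0.58, matrix protein -0.069, Serping1 -0.0070, Col1a1 -1.19, Col3a1 -0.40, Dcn -0.88, Igf2 -1.27, Col4a1 -0.22, Bgn -0.65, Ccl9 1.11, Cxcl12 -0.26, Spp1 0.22, Foxj1 -0.034 and Dynlrb2 -0.33. Smaller values turned as well. Serpina3n (-0.47) became 0.41 against the nearby field and 0.64 with at least 1000 UMIs, Mt1 (-0.29) 0.14 and 0.33, C4b (0.07) -0.40 and -0.41, and the protease list (0.37) -0.34 and -0.44. With at least 1000 UMIs, C1qa (-0.72) became 0.33, Timp2 (-0.49) 0.24 and the phagocyte list (-0.43) 0.19. The causes were not tested. Under all alternatives run, Lcn2 and C3 stayed above the field. Their lowest ratios were 3.41 and 1.70. Bins with few UMIs limit what single bins show, and 1 section a time limits every comparison.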
